A study of Mus musculus with 16 samples.

Results

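The effect of quercetin on LPS-stimulated dendritic cells was examined by setting 4 small RNA libraries of cells given quercetin plus LPS beside 4 libraries of cells given LPS alone, chosen by their labels from 16 libraries in the count table. Marrow of wild-type male C57BL/6 mice was cleared of red cells by lysis and cultured into dendritic cells. Quercetin, a flavonol found in plants, was given to the quercetin plus LPS group at 25 µM on culture days 5 and 7, followed by LPS at 1 µg/mL for 6 h on day 8. The LPS group received the same LPS and no quercetin. Libraries of cells given quercetin alone and of untreated controls, 4 each, served the comparison without LPS and the shared estimate of spread. Of 1372 miRNA names in the table, 568 had enough counts to be tested. Per the labels, the libraries are numbered by 4 mice, of which mice 1 to 3 were 8 weeks old and mouse 4 was 7 weeks old. Cultures were not sorted by any step that the labels describe, so each library may hold more than dendritic cells.

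LPS is a component of the outer wall of Gram-negative bacteria and activates Toll-like receptor 4. In macrophages and dendritic cells this receptor drives NF-kB and switches on a small set of miRNAs, among them miR-155, miR-146a, miR-147 and the miR-132 and miR-212 cluster, several of which feed back on the inflammatory response. A miRNA is cut from a hairpin whose arms are called 5p and 3p. It pairs with messenger RNAs mainly through its seed, bases 2 to 8 counted from its 5′ end, so miRNAs with one seed share many of their targets.

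The sequences below are those of some called miRNAs and of partners by seed or hairpin that were not called. They are as RefSeq gives them for GRCm38.p6, with the seed in capitals. The first 15 are grouped by shared seed or, for miR-155, by hairpin, so that miRNAs with the same seed but different values can be compared. The last 4 stand alone. The cluster of miR-212 and miR-132, at chr11:75173443-75173464 and chr11:75173723-75173744 on the plus strand, lies in an intron of the noncoding transcript 1700016P03Rik. Both 3p arms carry the seed AACAGUC. miR-146b lies in an intron of Mfsd13a (chr19:46342790-46342811 for the 5p arm), miR-155 in an exon of Mir155hg (chr16:84714182-84714202 for the 3p arm) and miR-342 in an intron of Evl (chr12:108658680-108658702 for the 3p arm). The hairpins of miR-215 (chr1:185313610-185313630), miR-203 (chr12:112130927-112130948) and miR-451a (chr11:78073186-78073207) are given by their mature arms.
miR-212-3p: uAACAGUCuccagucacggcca
miR-132-3p: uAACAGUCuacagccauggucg
miR-146b-5p: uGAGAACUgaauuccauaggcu
miR-146a-5p: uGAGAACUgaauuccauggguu
miR-222-3p: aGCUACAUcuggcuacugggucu
miR-221-3p: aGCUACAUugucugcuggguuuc
miR-155-3p: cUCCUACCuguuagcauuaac
miR-155-5p: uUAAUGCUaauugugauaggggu
miR-99b-5p: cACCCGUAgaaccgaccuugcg
miR-100-5p: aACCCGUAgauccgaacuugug
miR-351-5p: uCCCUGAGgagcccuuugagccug
miR-125a-5p: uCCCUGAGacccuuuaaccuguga
miR-125b-5p: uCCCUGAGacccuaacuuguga
miR-215-5p: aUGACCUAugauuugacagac
miR-192-5p: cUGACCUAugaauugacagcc
miR-342-3p: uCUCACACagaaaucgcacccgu
miR-203-3p: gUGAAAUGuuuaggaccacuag
miR-369-3p: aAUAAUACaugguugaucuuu
miR-451a: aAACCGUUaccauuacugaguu

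The libraries differed between the groups in 2 measured ways besides treatment. Total counts were 6459654 to 9041030 with quercetin plus LPS and 10105690 to 13949915 with LPS alone, without overlap (exact permutation p = 0.0286, two-sided, the smallest that 4 against 4 allows). Within mice they were lower in 4 of 4, for which the exact sign test gives 0.125, the smallest that 4 pairs allow. Without LPS the totals did not overlap either, at 7698774 to 8572734 with quercetin and 8668513 to 12535228 in controls. The quercetin libraries thus had the lower totals in both comparisons. The log2 fold change also fell with the G plus C content of the mature miRNA. Spearman's rho was -0.42 across 458 miRNAs with a RefSeq sequence, and the same measure in quercetin against control was -0.05. These are descriptions across miRNAs measured in the same libraries. By mouse, rho was -0.56, -0.29, 0.01 and -0.63 for mice 1 to 4, so mouse 3 showed no such trend and mice 1 and 4 showed it most. In quercetin against control rho was 0.12, -0.17, 0.29 and -0.42 for mice 1 to 4. Trends of opposite sign in single mice thus lay behind the -0.05 there, and mouse 4 was again the lowest. Median G plus C was 54.5% for miRNAs called lower, 40.9% for those called higher and 50% for those not called. Values after a correction for G plus C in each library, added after the data were seen, stand beside some of the results that it moved.

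**Figure D1:**
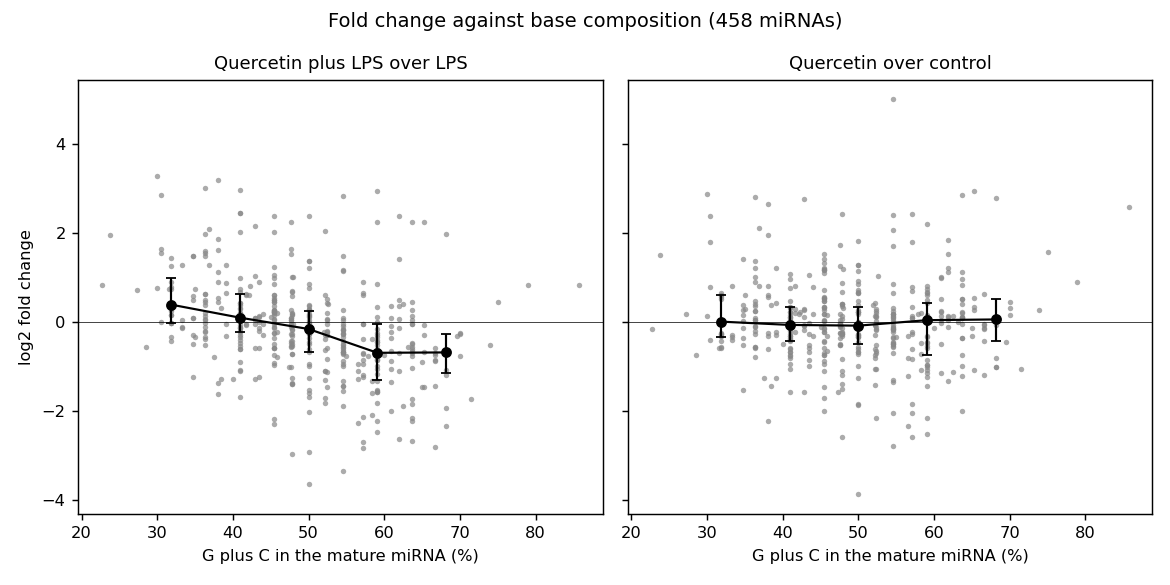
Log2 fold change of each miRNA (vertical axis) against the G plus C content of its mature sequence in percent (horizontal axis), for quercetin plus LPS over LPS on the left and quercetin over control on the right. Grey points are 458 miRNAs, and black points are medians with quartiles in 5 bins. The medians on the left run between 0.40 in the lowest bin and -0.68 in the highest, and those on the right stay between -0.07 and 0.07.

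Of 568 miRNAs tested, 130 (22.9%) passed an adjusted p of 0.05 in edgeR's quasi-likelihood test, 49 higher (8.63%) and 81 lower (14.3%) with quercetin plus LPS than with LPS alone. At an unadjusted p of 0.05 there were 213 (37.5%). Some names carry identical counts, and with each such set taken as 1 measurement 126 of 551 were called, 46 higher and 80 lower. The direction was the same in all 4 mice for 121 of the 130. In 92 of them the 4 libraries of one group all lay above the 4 of the other. Over all 568 that held for 115 (20.2%), 39 higher (6.87%) and 76 lower (13.4%). Levels below are in CPM, counts scaled to a common library size. The lower set was the more abundant. It held 7.66% to 11.7% of all counts with quercetin plus LPS, against 13.8% to 31.9% with LPS alone. The higher set held 3.55% to 4.49% of counts with quercetin plus LPS, against 1.66% to 1.91% with LPS alone. Both sets were chosen by the test on these same libraries, so the direction of these shares follows from that choice. In the lower set miR-146b-5p, miR-191-5p and miR-10a-5p held means of 7.94%, 6.56% and 2.87% of counts with LPS alone. Their calls were lost in some settings, as given below.

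How the calls split between higher and lower depended on the scaling of the libraries. With TMM scaling 49 were higher and 81 lower, and the median of all tested miRNAs lay at -0.13. With RLE scaling the split was 67 higher and 66 lower, with upper quartile scaling 71 and 54, and with total counts alone 75 and 50. The fold changes of single miRNAs then shifted upward by a median of 0.13, 0.25 and 0.27. Under all 4 scalings 92 miRNAs kept their call and direction, 49 higher and 43 lower, and none was called in opposite directions. Each of the 49 higher calls is therefore in this set, whereas 38 of the 81 lower calls are not. In what follows "under all 4 scalings" refers to this set.

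**Figure D2:**
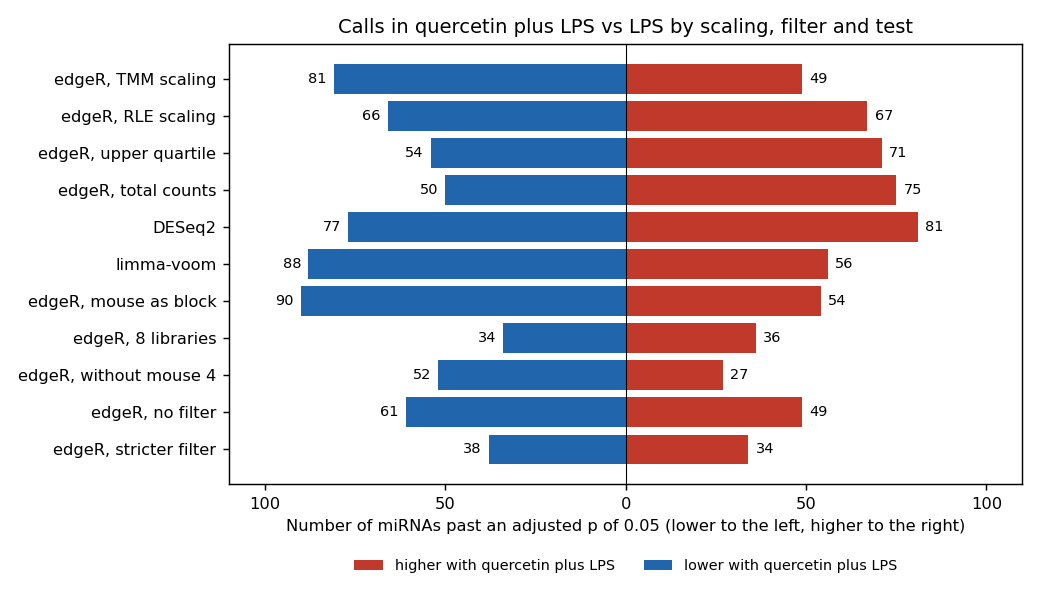
Number of miRNAs past an adjusted p of 0.05 in quercetin plus LPS against LPS (horizontal axis), lower to the left and higher to the right, for 11 combinations of scaling, test and filter (vertical axis). The TMM fit has 81 lower and 49 higher, and the total count fit has 50 lower and 75 higher.

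**Figure D3:**
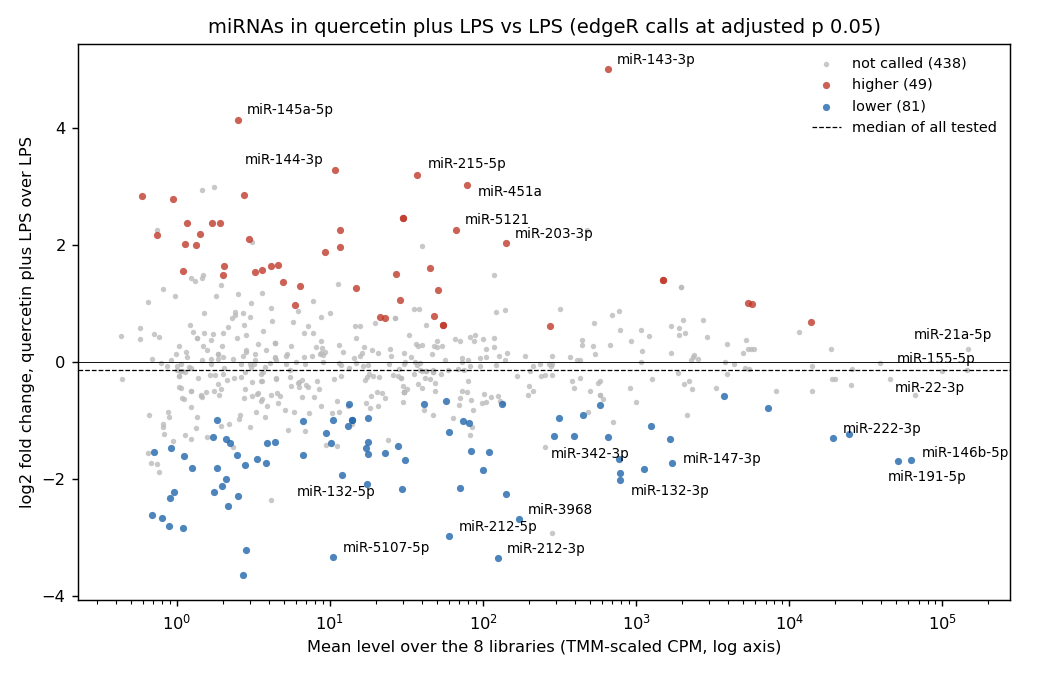
Log2 fold change of quercetin plus LPS over LPS (vertical axis) against the mean level over the 8 libraries in CPM (TMM-scaled, horizontal log axis) for 568 miRNAs. Red points are the 49 called higher, blue points the 81 called lower, and the dashed line is the median of all at -0.13. The most abundant called miRNAs, miR-146b-5p and miR-191-5p, are lower.

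The miRNAs known to rise in myeloid cells after LPS were mostly lower with quercetin plus LPS than with LPS alone. This list, like the others below, was chosen with earlier results of these data known. In LPS over control only 3 of all 568 miRNAs (0.528%) were called higher. Most of this list was therefore not called as raised by LPS in these cultures. Of the 24 in the list that were measured, 14 were called lower with quercetin plus LPS and none higher, beside 14.3% and 8.63% of all miRNAs. Of the 14, 9 were called under all 4 scalings. The median log2 fold change of the 24 was -1.27, against -0.13 for all miRNAs. With the G plus C correction 13 of the 21 with a sequence were lower. In quercetin over control, without LPS, 11 of the 24 were lower and none higher, beside 8.98% and 6.87% of all miRNAs. The median there was -1.23, against -0.05 for all miRNAs. The largest differences were in the miR-132 and miR-212 cluster, whose transcription is driven by CREB. All 4 of its arms were lower, beside 14.3% of all miRNAs, and were so under all 4 scalings.

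miR-212-3p had 19.9, 28.4, 24.2 and 17.1 CPM with quercetin plus LPS, against 274, 307, 154 and 178 CPM with LPS alone. The groups lay far apart, with every quercetin plus LPS library below 30 CPM and every LPS library above 150 CPM (log2 fold change -3.35 ± 0.29 (SE), adjusted p = 1.18e-06, edgeR). From the same hairpin, miR-212-5p had 17.4, 10.9, 10.5 and 15.6 CPM with quercetin plus LPS, against 128, 169, 42.7 and 86.8 CPM with LPS alone (log2 fold change -2.97 ± 0.37 (SE), adjusted p = 4.18e-05). LPS 3 was the lowest of its group and still above every quercetin plus LPS library. miR-132-3p, the most abundant arm of the cluster, had 289, 304, 339 and 319 CPM with quercetin plus LPS, against 1223, 931, 1184 and 1724 CPM with LPS alone. The quercetin plus LPS libraries lay close together and below all LPS libraries (log2 fold change -2.02 ± 0.26 (SE), adjusted p = 4.55e-05). Its partner miR-132-5p averaged 10.7 ± 2.92 CPM with quercetin plus LPS and 48.2 ± 7.45 CPM with LPS alone (SD, n = 4 each), again without overlap (log2 fold change -2.17 ± 0.25 (SE), adjusted p = 2.26e-05).

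The arms of miR-155 differed in what they showed. miR-155-5p is the guide arm, which targets Socs1 and Inpp5d and promotes cytokine output of dendritic cells. It had 36696, 27518, 31126 and 68255 CPM with quercetin plus LPS, against 50716, 50676, 31804 and 66430.4 CPM with LPS alone. Mouse 4 had the highest value in both groups, the groups overlapped widely, and the difference did not pass the test (log2 fold change -0.29 ± 0.30 (SE), adjusted p = 0.546). The far rarer passenger arm miR-155-3p had 334, 131, 186 and 274 CPM with quercetin plus LPS, against 606, 797, 389 and 431 CPM with LPS alone. All quercetin plus LPS libraries lay below all LPS libraries (log2 fold change -1.26 ± 0.34 (SE), adjusted p = 0.0147). The call of miR-155-3p was lost with upper quartile scaling (adjusted p = 0.058) and without any 1 of quercetin plus LPS 2, 3 or 4 or LPS 1 or 2 (-1.11 to -0.85, adjusted p = 0.054 to 0.12). It was also 1 of only 3 miRNAs (0.528% of those tested) that were higher in LPS than in control cells, with 4.58% at an unadjusted p of 0.05, a comparison that uses the same LPS libraries, at 2.00 (adjusted p = 0.0106). The others were miR-129-5p (2.15, adjusted p = 0.0179) and miR-222-5p (1.15, adjusted p = 0.0106).

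The miR-146 pair shares the seed GAGAACU and represses Traf6 and Irak1, which act downstream of Toll-like receptors. The abundant member miR-146b-5p had 28766, 12953, 14945 and 62279.6 CPM with quercetin plus LPS, against 118014, 159784, 21711 and 80607 CPM with LPS alone. LPS 3 lay below quercetin plus LPS 1 and 4, so the groups overlapped (log2 fold change -1.68 ± 0.57 (SE), adjusted p = 0.0432). This call did not hold with RLE, upper quartile or total count scaling (adjusted p = 0.056, 0.10 and 0.052), nor with the mouse as block (-1.61, adjusted p = 0.071). It was also lost without any 1 of quercetin plus LPS 1, 2 or 3 or LPS 1, 2 or 4 or quercetin 1, 2, 3 or 4 or control 1, 2, 3 or 4 (-1.59 to -1.15, adjusted p = 0.063 to 0.19). The rare arm miR-146b-3p had 11.8, 8.24, 8.98 and 6.59 CPM with quercetin plus LPS, against 31.3, 29.02, 24.3 and 20.9 CPM with LPS alone. These groups did not overlap (log2 fold change -1.56 ± 0.23 (SE), adjusted p = 0.000128), and with the G plus C correction the value was -0.74 (adjusted p = 0.0509). miR-146a-5p ranged between 606 and 2673 CPM with quercetin plus LPS and between 579 and 4824 CPM with LPS alone, and its difference did not pass the test (log2 fold change -0.90 ± 0.64 (SE), adjusted p = 0.342).

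miR-147-3p, induced by Toll-like receptors in mouse macrophages, had 523, 1237, 1016 and 405 CPM with quercetin plus LPS, against 2647, 3004, 2659.5 and 2214 CPM with LPS alone. The highest quercetin plus LPS library lay below the lowest LPS library, with mice 1 and 4 showing the larger gaps (log2 fold change -1.73 ± 0.30 (SE), adjusted p = 0.000799). Without quercetin plus LPS 1 and 4 it stood at -1.05 (adjusted p = 0.0132). The miR-221 and miR-222 cluster lies on the X chromosome, and its members repress Kit and Cdkn1b. Of its 4 arms 3 were lower, beside 14.3% of all miRNAs, and 2 of the 3 were so under all 4 scalings. miR-222-3p had 13354, 11527, 14274 and 5654 CPM with quercetin plus LPS, against 26769, 21729.6, 38690.3 and 23223 CPM with LPS alone (log2 fold change -1.30 ± 0.26 (SE), adjusted p = 0.00269), without overlap, and without quercetin plus LPS 4 the fold change was -0.86, adjusted p = 0.016. miR-222-5p had 195, 137, 170.3 and 182.8 CPM with quercetin plus LPS, against 372, 359, 392.1 and 510.3 CPM with LPS alone (log2 fold change -1.25 ± 0.21 (SE), adjusted p = 0.000448), again without overlap. miR-221-3p, which has the same seed GCUACAU as miR-222-3p, averaged 6777 ± 1664 CPM with quercetin plus LPS and 9564 ± 1268 CPM with LPS alone and did not pass the test (log2 fold change -0.497 ± 0.20 (SE), adjusted p = 0.0774).

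The cluster of miR-99b, let-7e and miR-125a lies within Spaca6 on chromosome 17, and LPS is known to raise it in macrophages. Of 5 measured members 4 were lower, beside 14.3% of all miRNAs, and 2 of the 4 were so under all 4 scalings. miR-125a-5p had 56.5, 70.3, 44.1 and 55.8 CPM with quercetin plus LPS, against 145, 241, 92.5 and 177 CPM with LPS alone, with the groups apart (log2 fold change -1.53 ± 0.36 (SE), adjusted p = 0.00758). miR-99b-5p had 19.2, 73.6, 67.9 and 13.2 CPM with quercetin plus LPS, against 156, 332, 82.2 and 55.7 CPM with LPS alone, with an overlap between quercetin plus LPS 2 and 3 and LPS 4 (log2 fold change -1.85 ± 0.61 (SE), adjusted p = 0.0385). Its call was lost with total count scaling (-1.42, adjusted p = 0.1), without mouse 4 (-1.83, adjusted p = 0.072) and without any 1 of quercetin plus LPS 1 or 4 or LPS 1 or 2 or quercetin 1, 2, 3 or 4 or control 1 or 3 (-1.68 to -1.01, adjusted p = 0.052 to 0.26). With the G plus C correction it stood at -1.06 (adjusted p = 0.0284). The call of miR-125a-5p was lost without mouse 4 (-1.48, adjusted p = 0.051). let-7e-5p, from the same cluster, averaged 98.2 ± 18.7 CPM with quercetin plus LPS and 92.9 ± 16.4 CPM with LPS alone (log2 fold change 0.08 ± 0.28 (SE), adjusted p = 0.889). Without quercetin plus LPS libraries 1 and 4, no member of the cluster was called, whereas all 4 arms of miR-132 and miR-212 were.

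**Figure D4:**
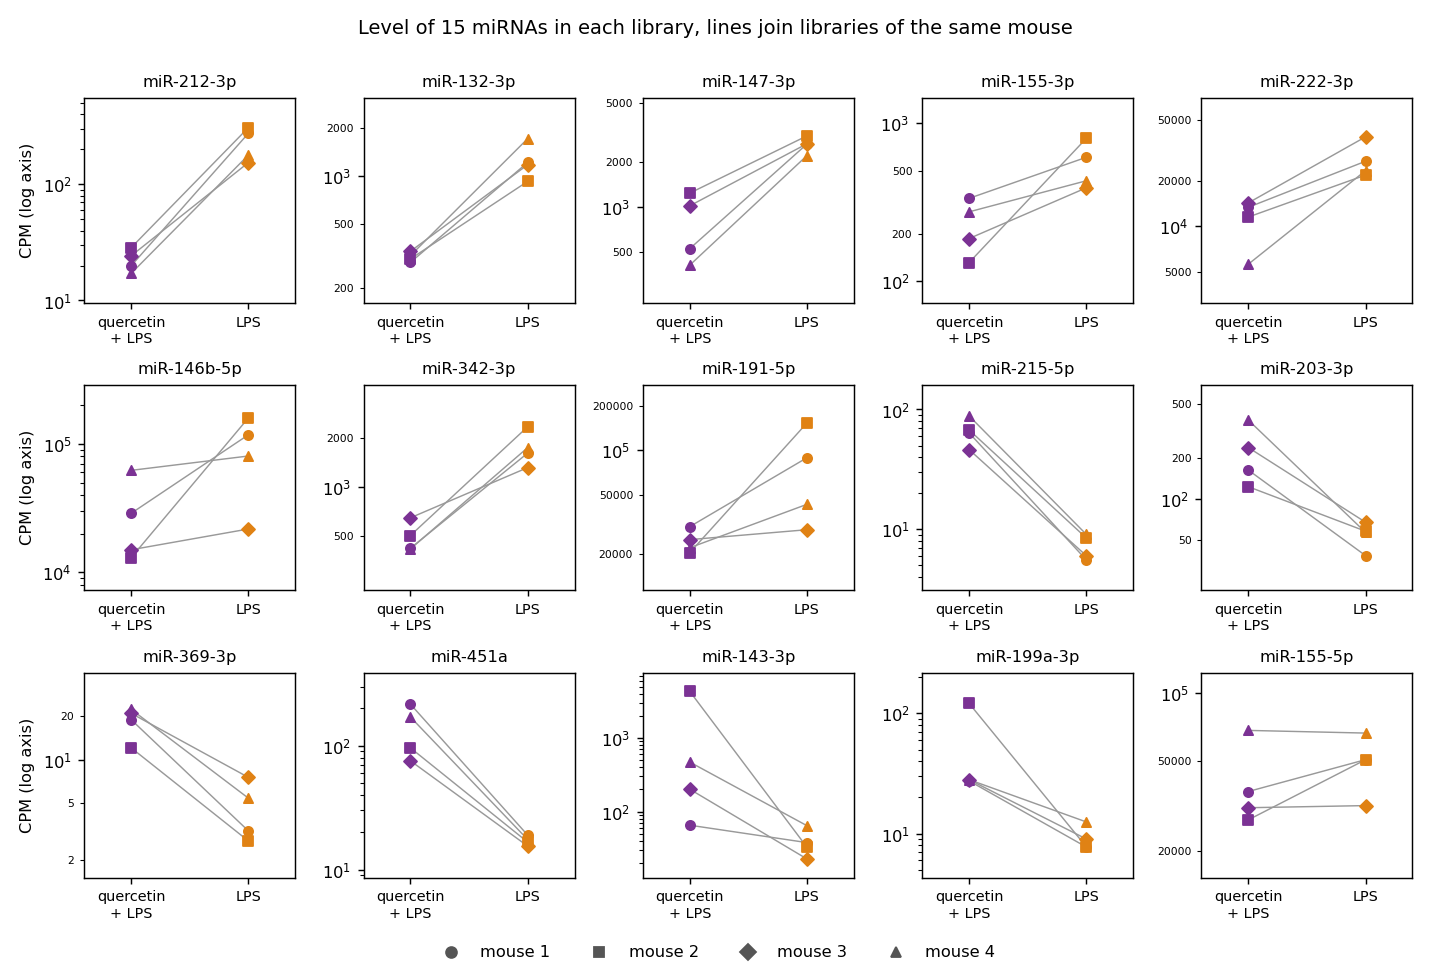
Level of 15 miRNAs in CPM (vertical log axes) in each library with quercetin plus LPS (purple, left in each panel) and LPS (orange, right in each panel). Symbols mark mice 1 to 4 and grey lines join libraries of the same mouse. All lines fall to the left for miR-212-3p, miR-132-3p and miR-342-3p, rise to the left for miR-215-5p and miR-451a, and for miR-155-5p the groups overlap.

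Markers of blood and myeloid cells were present in both groups. Of 10 granulocyte and monocyte miRNAs measured, 2 were lower and none higher, beside 14.3% of all miRNAs lower and 8.63% higher. Their summed levels were 22997 to 34267 CPM with quercetin plus LPS and 27202 to 42682 CPM with LPS alone. miR-142a-5p, found in all blood lineages, averaged 24601 ± 4749 CPM with quercetin plus LPS and 26656 ± 6644 CPM with LPS alone, and miR-223-3p, a granulocyte and monocyte miRNA, averaged 2417 ± 553 CPM with quercetin plus LPS and 2267 ± 331 CPM with LPS alone (SD, n = 4 each). Neither passed the test (adjusted p = 0.816 and 0.844). Both arms of miR-342, which lies in an intron of Evl, were lower under all 4 scalings. miR-342-3p had 421, 504, 648 and 417 CPM with quercetin plus LPS, against 1620.1, 2353, 1319.7 and 1751 CPM with LPS alone. The groups lay apart in all mice (log2 fold change -1.82 ± 0.24 (SE), adjusted p = 4.55e-05). The arm miR-342-5p was lower to a like degree (log2 fold change -1.67 ± 0.22 (SE), adjusted p = 4.55e-05).

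Among the 10 miRNAs most abundant with LPS alone, miR-191-5p, miR-146b-5p and miR-10a-5p were called lower, and the other 7 did not pass the test. Together the 10 held 65.03% ± 1.45 of counts with quercetin plus LPS and 69.4% ± 3.25 with LPS alone (SD, n = 4 each). The share was lower in all 4 mice, and the exact permutation p was 0.0571 (two-sided, 0.251 after adjustment over 11 shares, and 0.125 by the exact sign test within mice). miR-191-5p, abundant in many blood cells, had 30436, 20288, 24878 and 21924 CPM with quercetin plus LPS, against 89167, 153358, 29040.1 and 43139.7 CPM with LPS alone (log2 fold change -1.69 ± 0.45 (SE), adjusted p = 0.0148). LPS 1 and LPS 2 stood well above the other LPS libraries, and LPS 3 lay below quercetin plus LPS 1. The call was lost without any 1 of quercetin plus LPS 2 or 4 or LPS 1 or 2 (-1.42 to -0.96, adjusted p = 0.067 to 0.14). miR-10a-5p, encoded among the Hoxb genes, had 18381, 8038, 8770.2 and 23692 CPM with quercetin plus LPS, against 30202, 62562, 14301 and 30033 CPM with LPS alone (log2 fold change -1.22 ± 0.39 (SE), adjusted p = 0.0349), and the groups overlapped. Its call was lost with RLE scaling (-1.07, adjusted p = 0.054), with upper quartile scaling (-0.85, adjusted p = 0.13), with the mouse as block (-1.16, adjusted p = 0.052) and without any 1 of quercetin plus LPS 1, 2 or 3 or LPS 1, 2 or 4 or quercetin 1, 2, 3 or 4 or control 1, 2, 3 or 4 (-1.21 to -0.58, adjusted p = 0.058 to 0.3).

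The most abundant miRNA with quercetin plus LPS was miR-21a-5p, a miRNA that activated myeloid cells raise and that represses Pdcd4. It held 16.6% ± 3.11 of counts with quercetin plus LPS and 12.1% ± 3.03 with LPS alone, higher in 4 of 4 mice (exact permutation p = 0.114, two-sided, 0.251 adjusted, and 0.125 by the exact sign test within mice). In CPM its log2 fold change was 0.22 (adjusted p = 0.484). miR-22-3p and miR-181a-5p had log2 fold changes of -0.13 (adjusted p = 0.579) and -0.15 (adjusted p = 0.586).

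Other large falls were in less studied miRNAs. miR-3968 had 81.8, 24.97, 48.4 and 29.1 CPM with quercetin plus LPS, against 438, 304, 184 and 258 CPM with LPS alone, and the groups did not overlap (log2 fold change -2.68 ± 0.42 (SE), adjusted p = 0.00034). miR-138-5p had 13.3, 92.5, 73.8 and 16.3 CPM with quercetin plus LPS, against 230.4, 171, 343 and 193 CPM with LPS alone (log2 fold change -2.26 ± 0.54 (SE), adjusted p = 0.00798). The groups did not overlap, quercetin plus LPS 1 and 4 were the lowest, and without both libraries the value was -1.32 (adjusted p = 0.0608). miR-5107-5p had 1.54, 3.14, 2.86 and 0 CPM with quercetin plus LPS, against 25.4, 23.4, 19.3 and 8.504 CPM with LPS alone, down to no count in quercetin plus LPS 4 (log2 fold change -3.33 ± 0.65 (SE), adjusted p = 0.00195). miR-351-5p, from the X-linked cluster of miR-322 and miR-503, a set of cell cycle regulators, averaged 335 ± 161 CPM with quercetin plus LPS and 1239 ± 644 CPM with LPS alone (log2 fold change -1.89 ± 0.46 (SE), adjusted p = 0.00842), and with the G plus C correction its fold change was -0.998 (adjusted p = 0.0125). The call was lost without LPS 2 (-1.41, adjusted p = 0.058). miR-1249-3p averaged 26.2 ± 19.4 CPM with quercetin plus LPS and 116 ± 36.97 CPM with LPS alone (log2 fold change -2.14 ± 0.47 (SE), adjusted p = 0.00483), without overlap, and its corrected fold change was -1.40 (adjusted p = 0.00221). miR-3473d averaged 6.69 ± 4.198 CPM with quercetin plus LPS and 28.2 ± 7.82 CPM with LPS alone (log2 fold change -2.08 ± 0.43 (SE), adjusted p = 0.00339), also without overlap, and without quercetin plus LPS 1 and 4 it stood at -1.33 (adjusted p = 0.0498). miR-702-3p, made from a short intron, averaged 5.03 ± 4.72 CPM with quercetin plus LPS and 19.04 ± 8.896 CPM with LPS alone (log2 fold change -1.92 ± 0.66 (SE), adjusted p = 0.0447). It overlapped between the groups, its corrected fold change was -1.20 (adjusted p = 0.00705), and its call was lost with each of the other 3 scalings and without any 1 of quercetin plus LPS 1, 2 or 4 or LPS 1, 2 or 3 or quercetin 1, 2, 3 or 4 or control 1, 2, 3 or 4 (-1.86 to -1.36, adjusted p = 0.052 to 0.17).

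Among the largest rises was miR-215-5p, a miRNA induced by p53 in human cells. It had 63.9, 67.6, 46.3 and 88.5 CPM with quercetin plus LPS, against 5.56, 8.47, 6.03 and 9.08 CPM with LPS alone. Every quercetin plus LPS library lay above every LPS library by a wide gap (log2 fold change 3.19 ± 0.28 (SE), adjusted p = 1.18e-06). The fold change lay between 2.92 and 3.48 across all other settings tried. miR-192-5p, which has the same seed UGACCUA and stands at much higher counts, averaged 4967 ± 727 CPM with quercetin plus LPS and 5338 ± 1672 CPM with LPS alone (log2 fold change -0.10 ± 0.22 (SE), adjusted p = 0.802). Of 6 members of the family of miR-192, miR-194 and miR-215 3 were higher and none lower, beside 8.63% and 14.3% of all miRNAs. Besides miR-215-5p these were miR-194-5p (log2 fold change 0.62) and miR-215-3p (2.18), the other arm of the miR-215 hairpin. miR-215-3p averaged only 0.74 CPM over the 8 libraries. With the G plus C correction 4 of the 6 were higher. The call of miR-215-3p was lost without any 1 of quercetin plus LPS 2 or 4 or LPS 1 or 2 (2.04 to 2.18, adjusted p = 0.053 to 0.072), and that of miR-194-5p without mouse 4 (0.53, adjusted p = 0.18).

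miR-5121, which overlaps an exon of the ribosomal protein gene Rpl13a, had 120.2, 134, 87.99 and 97.7 CPM with quercetin plus LPS, against 27.2, 17.6, 24.9 and 21.7 CPM with LPS alone (log2 fold change 2.26 ± 0.29 (SE), adjusted p = 4.18e-05). miR-7033-5p, from an intron of the nuclear pore gene Pom121, had 25.3, 17.4, 23.4 and 11.2 CPM with quercetin plus LPS, against 3.62, 3.701, 4.92 and 3.79 CPM with LPS alone (log2 fold change 2.27 ± 0.30 (SE), adjusted p = 5.03e-05). Neither miRNA overlapped between the groups, and both kept their calls in all other settings, with a corrected fold change of 3.43 for miR-7033-5p after the G plus C correction. miR-677-5p averaged 40.2 ± 8.47 CPM with quercetin plus LPS and 14.2 ± 4.94 CPM with LPS alone, without overlap (log2 fold change 1.499 ± 0.29 (SE), adjusted p = 0.00172). miR-29a-5p, the passenger arm of a hairpin whose other arm represses collagens and DNA methyltransferases, had 31.1, 81.7, 77.8 and 82.3 CPM with quercetin plus LPS, against 14.2, 12.8, 34.4 and 28.2 CPM with LPS alone (log2 fold change 1.61 ± 0.38 (SE), adjusted p = 0.00758). Quercetin plus LPS 1 was the only library of its group to overlap with the LPS group. miR-29a-3p averaged 6324 ± 1348 CPM with quercetin plus LPS and 5423 ± 542 CPM with LPS alone and did not pass the test (log2 fold change 0.22 ± 0.21 (SE), adjusted p = 0.489). miR-190b-5p averaged 20.8 ± 10.9 CPM with quercetin plus LPS and 8.62 ± 2.99 CPM with LPS alone (log2 fold change 1.27 ± 0.36 (SE), adjusted p = 0.0184), and with the G plus C correction it stood at 0.70 (adjusted p = 0.0914).

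In the cluster of miR-182, miR-183 and miR-96, known from sensory organs and activated lymphocytes, 2 of 4 measured members were higher. None was lower, and of all miRNAs 8.63% were higher and 14.3% lower. miR-182-5p had 6194, 6542, 5435 and 10359 CPM with quercetin plus LPS, against 2466, 5641, 2235 and 3828 CPM with LPS alone. LPS 2 alone reached into the range of the quercetin plus LPS libraries (log2 fold change 1.01 ± 0.31 (SE), adjusted p = 0.0286), and the call was lost without mouse 4 (0.81, adjusted p = 0.16). The let-7 family, which restrains growth genes such as Hmga2 and Lin28, had 1 of 10 members higher, beside 8.63% of all miRNAs. That member, let-7c-5p, had 7874, 5805, 5629 and 10948 CPM with quercetin plus LPS, against 3236, 3598, 3415 and 5002 CPM with LPS alone, without overlap (log2 fold change 0.99 ± 0.27 (SE), adjusted p = 0.0159), and without mouse 4 its call was lost (0.91, adjusted p = 0.055). let-7f-5p, the most abundant member, had a log2 fold change of -0.02 (adjusted p = 0.965).

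The imprinted Dlk1-Dio3 region encodes a large miRNA cluster that is expressed from the maternal chromosome and is known from embryo, brain and stem cells. Of its miRNAs 53 stood in the table and 12 passed the filter on low counts. Of these 12, 6 were higher and none lower, beside 8.63% and 14.3% of all miRNAs, and all 6 were so under all 4 scalings. With the G plus C correction 8 of the 12 were higher. A member can pass the filter on low counts through the groups in which it is high, so these counts are not ones over the whole cluster. Summed levels were 42.6 to 93.98 CPM with quercetin plus LPS and 15.97 to 36.1 CPM with LPS alone. miR-369-3p, at chr12:109743466-109743486 in the noncoding gene Mirg, had 18.9, 12.1, 20.96 and 22.3 CPM with quercetin plus LPS, against 3.202, 2.73, 7.53 and 5.401 CPM with LPS alone (log2 fold change 1.97 ± 0.43 (SE), adjusted p = 0.00483). The groups did not overlap, and the G plus C correction gave 1.23 (adjusted p = 0.0271). miR-411-5p had 5.87, 5.92, 5.21 and 10.8 CPM with quercetin plus LPS, against 2.28, 2.05, 2.696 and 1.72 CPM with LPS alone, likewise apart (log2 fold change 1.65 ± 0.28 (SE), adjusted p = 0.000503), and miR-410-3p averaged 14.6 ± 7.398 CPM with quercetin plus LPS and 3.95 ± 0.706 CPM with LPS alone (log2 fold change 1.88 ± 0.45 (SE), adjusted p = 0.00817), called no longer without mouse 4 (1.61, adjusted p = 0.076). miR-127-5p stood at 0.618 to 1.51 CPM with quercetin plus LPS and at most 0.238 CPM with LPS alone (log2 fold change 2.84 ± 0.73 (SE), adjusted p = 0.0124), and its call was lost without mouse 4 (2.94, adjusted p = 0.0503).

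Some markers of other cell types also differed, and in these bulk samples fewer cells of a type and less RNA per cell cannot be told apart. The 7 erythroid names hold 5 distinct measurements, since the arms of miR-486a and miR-486b carry identical counts. Red cells had been lysed in every culture. Of the 5 measurements, 4 were higher and none lower with quercetin plus LPS, beside 8.63% and 14.3% of all miRNAs. The summed level of the 5, with each measurement taken once, was 1268 to 3041 CPM with quercetin plus LPS and 443 to 1409 CPM with LPS alone. miR-451a, which Ago2 cuts without Dicer and which is abundant in red cells, had 216, 96.03, 75.5 and 170.5 CPM with quercetin plus LPS, against 18.96, 16.7, 15.5 and 17.5 CPM with LPS alone. The groups lay far apart (log2 fold change 3.03 ± 0.33 (SE), adjusted p = 1.74e-05). Its neighbour miR-144-3p, on the same primary transcript, had 17.7, 27.99, 13.3 and 19.6 CPM with quercetin plus LPS, against 2.36, 1.07, 3.33 and 1.15 CPM with LPS alone, also apart (log2 fold change 3.29 ± 0.66 (SE), adjusted p = 0.00261). In quercetin over control, without LPS, miR-451a stood at 2.83 and miR-144-3p at 2.89. There 5 of the 7 erythroid names were higher and none lower, beside 6.87% and 8.98% of all miRNAs. miR-486a-5p and miR-486b-5p carry identical counts and cannot be told apart, with 2802, 2346, 2489 and 1075 CPM with quercetin plus LPS, against 1053, 1389, 423 and 423 CPM with LPS alone. LPS 2 lay above quercetin plus LPS 4, so these groups overlapped (log2 fold change 1.41 ± 0.44 (SE), adjusted p = 0.032). The call was lost without any 1 of quercetin plus LPS 1 or LPS 3 or 4 (1.38 to 1.42, adjusted p = 0.051 to 0.054) and without mouse 4 (1.41, adjusted p = 0.062).

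Of 10 distinct stromal and endothelial measurements (11 names, of which miR-199a-3p and miR-199b-3p are identical) 4 were higher and 1, miR-10a-5p, was lower. Of all miRNAs, 8.63% were higher and 14.3% lower. The summed level of the 10, most of it miR-10a-5p, was 9221 to 24892 CPM with quercetin plus LPS and 14482 to 63006 CPM with LPS alone. miR-143-3p, a smooth muscle and fibroblast miRNA, had 65.3, 4316, 202 and 471 CPM with quercetin plus LPS, against 37.8, 32.7, 22.7 and 64.2 CPM with LPS alone. Quercetin plus LPS 2 stood far above all others, and quercetin plus LPS 1 only just above the highest LPS library (log2 fold change 5.005 ± 1.34 (SE), adjusted p = 0.0147). Without quercetin plus LPS 2 the fold change was 2.80 (adjusted p = 0.067), and with the mouse as block 3.57 (adjusted p = 0.058). miR-145a-5p, from the same cluster, had 1.03, 15.1, 1.17 and 1.61 CPM with quercetin plus LPS, against 0.253, 0.487, 0.079 and 0.2298 CPM with LPS alone (log2 fold change 4.14 ± 1.08 (SE), adjusted p = 0.0127), and without quercetin plus LPS 2 it stood at 2.43 (adjusted p = 0.067). miR-199a-3p and miR-199b-3p, made in mesenchymal cells and identical in sequence, had 27.5, 121, 28.1 and 28.1 CPM with quercetin plus LPS, against 7.75, 7.79, 9.04 and 12.5 CPM with LPS alone (log2 fold change 2.47 ± 0.68 (SE), adjusted p = 0.017). Here too quercetin plus LPS 2 stood apart, while the other 3 of its group still lay above all LPS libraries. In controls miR-143-3p averaged 139.9 ± 145 CPM and miR-199a-3p 36.9 ± 35.6 CPM (SD, n = 4 each).

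Summed levels of 7 lymphocyte miRNAs were 3547 to 3930.4 CPM with quercetin plus LPS and 2763 to 4191 CPM with LPS alone. Those of 7 epithelial miRNAs were 273 to 628 CPM with quercetin plus LPS and 241 to 299.7 CPM with LPS alone. With the G plus C correction 2 of these 7 miRNAs were higher and 1 lower. Without it 1 was higher, beside 8.63% of all miRNAs. That was miR-203-3p, a skin miRNA that represses Trp63, with 163, 123, 239 and 379 CPM with quercetin plus LPS, against 38.5, 58.1, 67.6 and 57.00 CPM with LPS alone. The groups lay apart, with mouse 4 the highest of its group (log2 fold change 2.03 ± 0.32 (SE), adjusted p = 0.00034). Of 7 lymphocyte miRNAs 1, miR-708-5p, was lower (-0.72, adjusted p = 0.0349), beside 14.3% of all miRNAs. That call was lost with each of the other 3 scalings and without any 1 of the 16 libraries. With the G plus C correction 1 of the 6 lymphocyte miRNAs with a sequence was higher and 1 lower. Of 4 hepatic, muscle, neural and pancreatic miRNAs 1, miR-133a-3p, was higher (2.18, adjusted p = 0.0191), beside 8.63% of all miRNAs. Its call was lost without mouse 4 (2.31, adjusted p = 0.052). The part of other cell types in the other differences was not tested.

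Other families were read against the 14.3% of all miRNAs called lower. None of 10 miRNAs of the miR-15 and miR-16 family and none of 11 miR-30 miRNAs was called, with medians of 0.00 and 0.23 beside -0.13 for all miRNAs. With the G plus C correction 2 of the 7 miR-30 miRNAs with a sequence were higher, with a median of 0.32 beside 0.03 for all with a sequence. Of 22 miRNAs of miR-17-92 and its paralogous clusters, which promote growth, 3 were lower, with a median of -0.38. miR-106a-5p averaged 2.15 ± 0.533 CPM with quercetin plus LPS and 5.62 ± 0.334 CPM with LPS alone (log2 fold change -1.38 ± 0.24 (SE), adjusted p = 0.000734), and miR-20b-5p had a log2 fold change of -1.36, adjusted p = 0.00253. Of 11 miRNAs of the miR-23, miR-27 and miR-24 clusters 5 were lower, 3 under all 4 scalings, with a median of -0.58. Among them miR-24-3p averaged 959.6 ± 197 CPM with quercetin plus LPS and 2376 ± 1101 CPM with LPS alone (log2 fold change -1.31 ± 0.31 (SE), adjusted p = 0.00782), and the call was lost without any 1 of quercetin plus LPS 4 or LPS 1 or 2 (-0.99 to -0.88, adjusted p = 0.053 to 0.074). With the G plus C correction it stood at -0.79 (adjusted p = 0.0433). Of 8 miR-181 miRNAs 2 were lower. miR-181b-1-3p (-1.37, adjusted p = 0.00949) kept its call under all 4 scalings but not without LPS 4 (-0.94, adjusted p = 0.053), and miR-181b-5p (-0.79, adjusted p = 0.0344) was not called with any of the other 3 scalings. Its call held with DESeq2, limma-voom and the mouse as block, but was lost without mouse 4 (-0.63, adjusted p = 0.18) and without any 1 of quercetin plus LPS 1, 2, 3 or 4 or LPS 1, 2, 3 or 4 or quercetin 1, 2, 3 or 4 or control 2, 3 or 4 (-0.69 to -0.41, adjusted p = 0.06 to 0.22).

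The p53-induced miR-34 family with miR-210 had 3 of 9 members lower, beside 14.3% of all miRNAs. The clearest was miR-34c-3p, with 4.22, 2.79, 3.51 and 2.69 CPM with quercetin plus LPS, against 10.95, 10.1, 8.48 and 10.3 CPM with LPS alone (log2 fold change -1.59 ± 0.25 (SE), adjusted p = 0.000352). The hypoxia-induced miR-210-3p had 135, 1160.3, 1771 and 93.1 CPM with quercetin plus LPS, against 102, 272, 224 and 61.5 CPM with LPS alone. Quercetin plus LPS 2 and 3 stood above all LPS libraries, while mice 1 and 4 showed little difference, and the test was just missed (log2 fold change 2.26 ± 0.81 (SE), adjusted p = 0.052). With the G plus C correction its fold change was 2.65 (adjusted p = 0.00106).

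Of 161 hairpins with both arms tested, both arms were lower in 13 and both higher in 4, and in none were the arms called in opposite directions. In 37 hairpins 1 arm was called, and in 31 of these the other arm had the same sign. Besides miR-132, miR-212, miR-222, miR-342 and miR-146b, both arms of miR-125a, miR-99b, miR-181b, miR-27a and miR-34c were lower. Both arms of miR-215, miR-144 and miR-145a were higher. Arms of a hairpin share their precursor and are not independent. Gaps between arms were large for miR-5107, at -3.33 for the 5p and -0.45 for the 3p arm, and for miR-29a, at 1.61 and 0.22. The difference between arms was not tested.

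With identical names taken as 1 measurement, 45 seeds had 2 or more tested members and 9 had 2 or more called members. In 6 of these all called members were lower, in 1 all were higher, and in 2 they went both ways. For the seed AACAGUC both miR-212-3p and miR-132-3p were lower, as given above. For ACCCGUA, miR-99b-5p was lower and miR-100-5p higher. miR-100-5p stood at 12.04, 4.76, 4.43 and 7.13 CPM with quercetin plus LPS and 3.71, 3.798, 1.82 and 1.61 CPM with LPS alone (log2 fold change 1.37 ± 0.44 (SE), adjusted p = 0.0357), without overlap, and its call was lost without mouse 4 (1.19, adjusted p = 0.16), without both quercetin plus LPS 1 and 4 (0.92, adjusted p = 0.21) and without any 1 of quercetin plus LPS 1 or LPS 3 or 4 (1.12 to 1.41, adjusted p = 0.057 to 0.083). For AGUGCAA, miR-130b-3p was lower (-0.73, adjusted p = 0.0404) and miR-130a-3p higher (0.76, adjusted p = 0.0224). For CCCUGAG, miR-351-5p and miR-125a-5p were lower, while miR-125b-5p averaged 93.4 ± 32.04 CPM with quercetin plus LPS and 97.7 ± 34.3 CPM with LPS alone (log2 fold change -0.07 ± 0.30 (SE), adjusted p = 0.916).

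Whether the quercetin difference depended on LPS was tested as the difference between quercetin plus LPS over LPS and quercetin over control, which share no library. No miRNA passed an adjusted p of 0.05 in edgeR (0.0% of 568, smallest adjusted p = 0.889). At an unadjusted p of 0.05 there were 26 (4.58%), and DESeq2 and limma-voom also called none, with 29 and 20 at that unadjusted level. The 5 with the smallest p were miR-129-5p, miR-342-3p, miR-203-3p, miR-3074-5p and miR-374c-3p. miR-342-3p had log2 fold changes of -1.82 with LPS and -0.80 without it, a difference of -1.02 ± 0.33 (SE, unadjusted p = 0.00659). miR-203-3p stood at 2.03 with LPS and 0.78 without it, a difference of 1.25 ± 0.44 (SE, unadjusted p = 0.0115). A miss in this test does not show that the differences were equal.

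Quercetin over control gave 90 calls (15.8%), 39 higher (6.87%) and 51 lower (8.98%), with 27.3% of miRNAs past an unadjusted p of 0.05. Of the 49 miRNAs higher with quercetin plus LPS, 25 were also higher without LPS, 51.0% of the first list and 64.1% of the second. Of the 81 lower, 39 were also lower without LPS, 48.1% of the first list and 76.5% of the second. None was called in opposite directions. Without LPS, miR-212-3p stood at -2.78 (adjusted p = 7.89e-06), miR-132-3p at -1.85 (adjusted p = 0.000125) and miR-215-5p at 2.66 (adjusted p = 7.89e-06). miR-143-3p, at 1.67 without LPS, and miR-199a-3p, at 0.22, did not pass the test there (adjusted p = 0.371 and 0.862).

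**Figure D5:**
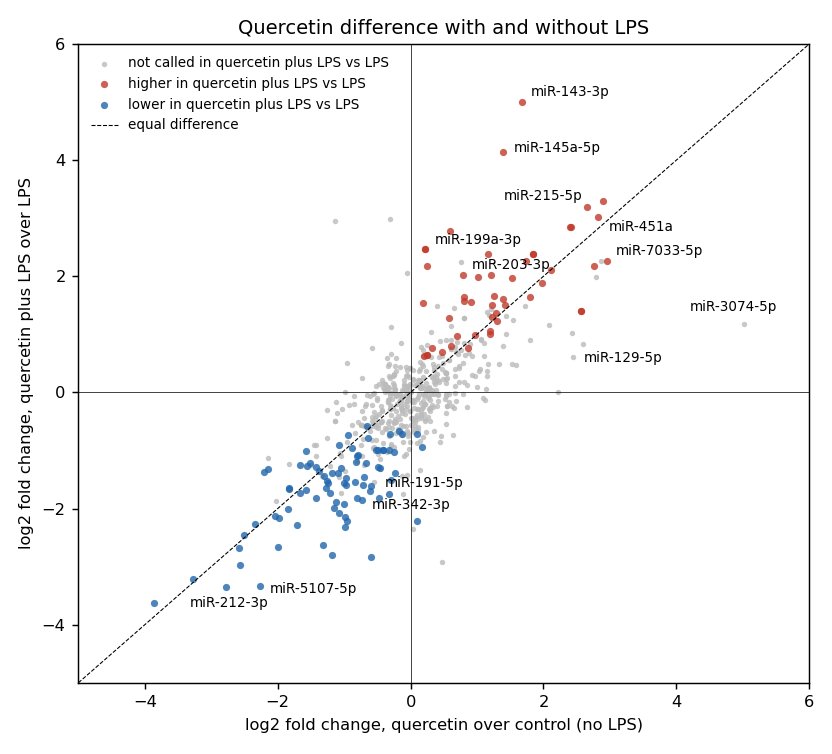
Log2 fold change of quercetin plus LPS over LPS (vertical axis) against that of quercetin over control (horizontal axis) for 568 miRNAs. Red and blue points are those called higher and lower with quercetin plus LPS, and the dashed line marks equal differences. miR-212-3p and miR-215-5p lie near the line, and miR-143-3p and miR-203-3p lie above it.

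At the threshold, the called miRNAs nearest to it were let-7a-1-3p and let-7c-2-3p, which carry identical counts (0.64, adjusted p = 0.0468), and miR-1948-5p (0.97, adjusted p = 0.0455). The calls of the let-7 arms were lost with the mouse as block (0.64, adjusted p = 0.063), without mouse 4 (0.62, adjusted p = 0.18) and without any 1 of LPS 1 or 2 (0.73 to 0.75, adjusted p = 0.069 to 0.071). That of miR-1948-5p was lost without mouse 4 (0.80, adjusted p = 0.22) and without any 1 of quercetin plus LPS 1 or 2 or LPS 1, 3 or 4 (1.04 to 1.11, adjusted p = 0.051 to 0.071). Just beyond it stood miR-28c (-0.57, adjusted p = 0.0508), miR-298-5p (-1.46, adjusted p = 0.0508) and miR-652-3p (-0.84, adjusted p = 0.0508). Of the 109 called miRNAs with a sequence, 23 held in each of 33 other settings, 12 higher and 11 lower. Of the 21 without one, which the G plus C correction could not include, 4 held in each setting that needs no sequence.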

How the data were processed

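Small RNA of 16 libraries was counted. The authors deposited raw counts for each mature miRNA. The submitters' processing notes name cutadapt and build mm9; the aligner and counting rule are not given in the sources used here. Of 1381 rows, 1 with text and 4 that look exchanged between neighbours in quercetin libraries were left out (miR-6993-3p with miR-1839-5p, miR-700-3p with miR-654-3p), and 4 names on 2 rows were summed, leaving 1372 names. In 15 sets of 32 names all counts are identical.

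The filter was filterByExpr of edgeR 4.0.16 (R 4.3.3), which kept 568 miRNAs. After TMM scaling, a quasi-likelihood model with 1 coefficient for each of the 4 groups was fitted, and p-values were adjusted by Benjamini-Hochberg over all 568, with 0.05 as threshold. SE is the log2 fold change divided by the square root of F. Levels are TMM-scaled CPM. DESeq2 1.42.0, limma-voom (limma 3.58.1), other scalings and filters, a G plus C correction and left-out libraries were alternatives. Scripts were tested on simulated data. Library totals were 6459654 to 13949915 in the 8 libraries compared. The p-values measure the spread between cultures of 4 mice, in a main fit that has no term for the mouse.

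Libraries with one number were treated as one mouse, since the series names 4 mice and the labels number them. Same-mouse deviations correlated at -0.17, 0.10, 0.22 and 0.59 for mice 1 to 4. Those of different mice correlated at -0.58 to 0.29, a range that only mouse 4 exceeded. With the mouse as block, 144 miRNAs were called in place of 130.

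The miRNAs named are the 15 largest rises and falls of at least 10 CPM, the 10 most abundant, fixed inflammatory hairpins, other arms, up to 4 per list, 5 of the interaction and 3 each side of the threshold; others, including those named for a shared seed or a lineage, were chosen after their values were seen. Members and lists were chosen with earlier results of these data known. RefSeq sequences (GRCm38.p6) matched 458 of 568 names, and host genes are from GENCODE.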

Additional observations from a re-analysis of the deposited data

Results flagged for a closer look

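Among 272 sets of 4 libraries examined, 17 had a library far from the others of its group, as its gap to the nearest one over the group's range passed Dixon's 95% critical value. Chance flags about 1 in 20 such sets, and identical names count separately. Of the 17, 5 were in quercetin plus LPS 2 and 4 in LPS 4.

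In quercetin plus LPS 2, miR-143-3p stood at 4316 CPM (others 65.3 to 471), miR-145a-5p at 15.1 CPM (others 1.03 to 1.61), miR-199a-3p and miR-199b-3p at 121 CPM each (others 27.5 to 28.1), and miR-125b-1-3p at 8.83 CPM (others 0.269 to 0.911). Quercetin plus LPS 1 was low for miR-29a-5p at 31.1 CPM, quercetin plus LPS 3 was low for miR-1948-5p at 4.43 CPM, and quercetin plus LPS 4 was high for miR-411-5p at 10.8 CPM and for miR-181c-5p at 2344 CPM.

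In LPS 4, let-7f-5p was high at 48209.8 CPM (others 35757 to 37146), let-7g-5p at 5771 CPM and miR-181b-5p at 12919 CPM, while miR-27a-5p was low at 29.3 CPM. LPS 3 was low for miR-200c-3p at 13.7 CPM and for miR-138-2-3p at 0.555 CPM, and high for miR-7033-5p at 4.92 CPM. LPS 2 was high for miR-1948-5p at 5.94 CPM.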

How the results depend on the processing

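The number of calls, 130 by TMM with all 16 libraries, was 72 with a stricter filter (at least 10 CPM in 4 libraries), 70 when only the 8 libraries were fitted and 79 without mouse 4. It was 80 to 141 when 1 library was left out, with 80 without LPS 1 and 81 without LPS 2. With the mouse as a replicate block it was 144, with the G plus C correction 118 of 458 (107 without it), with both 140, and without quercetin plus LPS 1 and 4 it was 95. These settings moved the split between higher and lower too, to 44 and 36 without LPS 1, 54 and 64 with the G plus C correction and 50 and 45 without quercetin plus LPS 1 and 4. The cause was not tested. Of the 109 calls with a sequence, 83 were kept in direction with the G plus C correction and 26 were lost; the other 21 were not tested there. Without quercetin plus LPS 1 and 4, calls of miR-191-5p, miR-24-3p, miR-351-5p, miR-125a-5p, miR-181b-1-3p, miR-182-5p, miR-194-5p, miR-410-3p and let-7c-5p were among those lost. Calls of miR-877-3p, miR-23a-5p, miR-138-1-3p, miR-501-3p, miR-708-5p, miR-18a-3p, let-7a-1-3p and let-7c-2-3p were lost with it. With the 4 exchanged rows as deposited there were 137 calls, and with them put back 131. The test of dependence on LPS gave 0 calls in every setting. The share of the 10 most abundant miRNAs kept its direction in each. That share is taken from unscaled counts, so only settings that change the libraries or rows could move it. None of 136 named miRNAs turned from a call in one direction to a call in the other, and of 75 that were called 44 lost the call in some setting. miRNAs near 1 CPM rest on few reads per library.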

Other observations

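The trend of level with G plus C content differed between single libraries of a group. Across 458 miRNAs, Spearman's rho between G plus C and a library's deviation from the mean of all libraries was -0.54, -0.13, 0.24 and -0.81 in quercetin plus LPS 1 to 4, and 0.39, 0.37, 0.26 and -0.29 in LPS 1 to 4. The libraries of mouse 4 were the lowest of both groups.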
